A study of Mus musculus with 16 samples.

Results

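The guanylate-binding proteins (GBPs) are large GTPases of the cell-autonomous immune defence. The members described here are Gbp2, Gbp3, Gbp4, Gbp5, Gbp6, Gbp7, Gbp8 and Gbp9, which were taken by symbol from the deposited table and make up 8 of its 55146 genes. RNA was sequenced from 16 mammary tumours of mice, 4 in each of 4 groups. Tumours that had arisen in MMTV-PyMT mice of 12 weeks, which carry the polyoma middle T antigen under the mammary tumour virus promoter, had been reimplanted into the mammary fat pad number 4 of FVB recipients. All 4 groups therefore share the transgene and an immunocompetent host. Over 28 days 1 group of recipients received vehicle, another anti-PD-L1 antibody (5 mg/kg, 2 doses per week), another daily sonidegib (20 mg/kg), and the last both agents, called the combination below. Sonidegib blocks Smoothened, through which Hedgehog ligands signal, and anti-PD-L1 releases T cells from checkpoint inhibition. The labels number the tumours within a group and do not say whether they derive from separate donors. All p-values hence reflect only how much these particular tumours varied, which may in part be technical variation.

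GBPs are induced by interferon-gamma, which T cells and NK cells secrete and which signals through its receptor and the JAK kinases. Promoters of its target genes carry a motif called GAS, and interferon-responsive promoters more broadly carry the ISRE, which IRF factors bind. The proteins assemble on pathogen-containing vacuoles and on bacteria and promote inflammasome and caspase activation there. Tumour cells, macrophages, endothelial cells and fibroblasts can all express them once interferon reaches them, and their RNA is commonly read as part of an interferon-gamma signature of tumours.

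The mouse genes lie in clusters on 2 chromosomes. On chromosome 3, within 144.0 kb of the plus strand of GRCm38 (GENCODE release M21), stand Gbp5 (142493978 to 142522344), Gbp7 (142530342 to 142550149), Gbp3 (142560026 to 142573209), Gbp2b (142594847 to 142619179) and Gbp2 (142620602 to 142638008). On chromosome 5, within 332.3 kb of the minus strand, stand Gbp8 (105014150 to 105139540), Gbp9 (105077630 to 105139539), Gbp4 (105115767 to 105139586), Gbp10 (105215699 to 105239533), Gbp6 (105270702 to 105293698) and Gbp11 (105323042 to 105346472). Gbp2b, Gbp10 and Gbp11 are no members and serve for comparison. All members are annotated as protein-coding, and Gbp11 as a polymorphic pseudogene.

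RefSeq promoter windows of GRCm38.p6, reaching from 250 bases before to 50 bases after the annotated start, were matched by symbol for 4 of the 8 members, all on chromosome 3. They are shown because the motifs through which interferon acts can be read in them. Capitals mark matches to GAS (TTCNNNGAA, a palindrome) or to the ISRE core (GAAA, any 2 bases and GAAA again, searched on both strands), and each sequence is written 5′ to 3′.

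Gbp5 promoter, chr3:142496684-142496983, plus strand: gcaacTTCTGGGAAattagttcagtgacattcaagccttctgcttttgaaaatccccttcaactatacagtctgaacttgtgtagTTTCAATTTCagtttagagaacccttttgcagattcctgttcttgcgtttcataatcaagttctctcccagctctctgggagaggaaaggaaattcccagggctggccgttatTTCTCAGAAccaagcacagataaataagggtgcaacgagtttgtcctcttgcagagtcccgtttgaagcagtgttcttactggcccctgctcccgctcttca
Gbp7 promoter, chr3:142530086-142530385, plus strand: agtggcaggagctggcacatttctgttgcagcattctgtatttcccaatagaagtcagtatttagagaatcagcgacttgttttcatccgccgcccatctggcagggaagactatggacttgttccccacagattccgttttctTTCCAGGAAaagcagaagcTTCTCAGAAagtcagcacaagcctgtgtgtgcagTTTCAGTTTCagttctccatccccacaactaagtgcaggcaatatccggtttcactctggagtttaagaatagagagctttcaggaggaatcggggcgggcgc
Gbp3 promoter, chr3:142559794-142560093, plus strand: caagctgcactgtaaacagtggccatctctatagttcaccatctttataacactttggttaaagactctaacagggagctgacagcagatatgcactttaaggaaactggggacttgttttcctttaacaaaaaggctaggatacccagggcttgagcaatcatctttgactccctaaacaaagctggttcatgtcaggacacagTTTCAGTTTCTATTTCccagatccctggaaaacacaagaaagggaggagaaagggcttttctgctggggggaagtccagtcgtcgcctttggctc
Gbp2 promoter, chr3:142620413-142620712, plus strand: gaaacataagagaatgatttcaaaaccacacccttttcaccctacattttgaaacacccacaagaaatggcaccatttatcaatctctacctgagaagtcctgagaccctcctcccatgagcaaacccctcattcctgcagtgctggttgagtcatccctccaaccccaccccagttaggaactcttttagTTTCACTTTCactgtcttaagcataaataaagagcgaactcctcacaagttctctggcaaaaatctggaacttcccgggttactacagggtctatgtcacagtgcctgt

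The Gbp5 and Gbp7 windows held 2 GAS matches and 1 ISRE match each. In Gbp7 these stood close together, at -106 to -98, -87 to -79 and -53 to -44 from the start, and in Gbp5 at -245 to -237, -52 to -44 and, for the ISRE, -165 to -156. The Gbp3 window held 2 ISRE matches that overlap, at -45 to -36 and -39 to -30, and no GAS match. A second Gbp3 window just downstream held neither motif. The Gbp2 window held 1 ISRE match at -59 to -50, with the same letters as the single match of Gbp2b at -137 to -128. All the ISRE matches were on the minus strand. Over the 32851 mouse windows of this length, 8.3% held a GAS match, 3.44% an ISRE match and 0.454% both. A match is a description of letters and not a measured binding site. The start of the Gbp5 window lies inside the GENCODE gene model, because RefSeq annotates another start.

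Before the results, some properties of the libraries bear on every value. The depth, estimated from the deposited values, was about 33.7 to 58.6 M fragments per library, and 11361 to 14784 genes reached 1 FPKM (fragments scaled to transcript length in kilobases and to M mapped fragments, M standing for mega). Vehicle replicate 3 was the lowest on both counts, and its median log2 deviation from the other libraries was -0.764, against -0.129 to 0.149 in the rest. The slope of a library's deviations over gene GC content was 3.58 to 4.81 (log2 per 100% GC) in vehicle replicates 1 to 3 and 2.39 in combination replicate 1, and -3.61 to -2.56 in combination replicates 2 to 4. In the other 9 libraries it was -1.85 to 2.98. Combination replicates 2 to 4, with the lowest slopes, had the highest Gbp sums, given below (149, 351 and 194 FPKM). Vehicle replicates 1 to 3 and combination replicate 1 had sums of 29.0, 46.7, 26.1 and 32.5 FPKM. With anti-PD-L1 the slope was -1.73 to 0.5 and the sum 51.5 to 74.1 FPKM. The slope was 2.98 in sonidegib replicate 2 (43.8 FPKM), -0.64 in sonidegib replicate 3 (75.2 FPKM) and -0.26 in vehicle replicate 4 (49.3 FPKM). It was -1.85 in sonidegib replicate 1 (54.8 FPKM) and 0.59 in sonidegib replicate 4 (96.2 FPKM). The relation between the slope and the Gbp sum was not tested. The members' transcripts had 41.1 to 49.2% GC, against a median of 49.3% over tested genes. The library numbers in the labels also follow the order of the groups, and library order and treatment cannot be told apart. The 9 mammary epithelial markers were present in every library, with a sum of 603 to 2500 FPKM. In such bulk tissue, fewer cells of a type and less RNA per cell cannot be told apart.

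**Figure D1:**
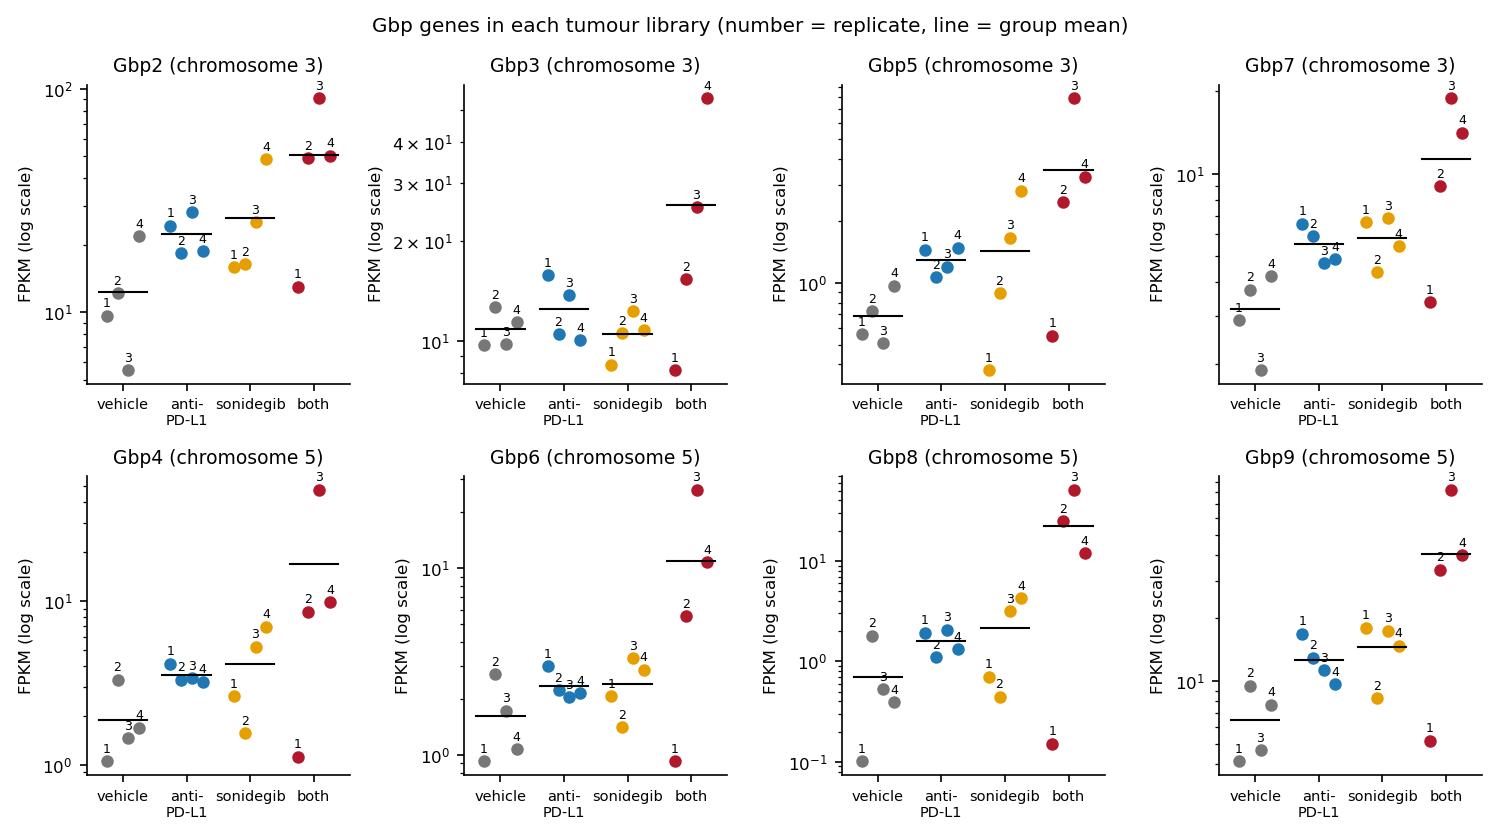
Level of each member in FPKM on a log scale in the 4 tumours of each group (points, numbered by replicate) with the group mean (line). Combination replicates 2 to 4 lie above all vehicle tumours for all 8 members, and combination replicate 1 lies inside the vehicle range or, for Gbp3, below it.

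The members differed in abundance. With vehicle, Gbp2 (12.3 ± 6.96 FPKM, SD, n = 4) and Gbp3 (10.9 ± 1.41) were the most abundant, followed by Gbp9 (6.5 ± 2.55) and Gbp7 (3.19 ± 1.01). Gbp4 (1.88 ± 0.995), Gbp6 (1.61 ± 0.812), Gbp8 (0.707 ± 0.753) and Gbp5 (0.692 ± 0.206) were low. Gbp2 and Gbp3 were not separated, Gbp2 exceeding Gbp3 in 1 of 4 vehicle tumours, whereas Gbp3 exceeded Gbp9 in 4 of 4 with ranges that did not overlap. Gbp8 and Gbp5 were not separated either, with Gbp8 higher in 2 of 4. In both single-agent groups the order was Gbp2, Gbp9, Gbp3, Gbp7, Gbp4, Gbp6, Gbp8 and Gbp5, Gbp9 and Gbp3 again being close (Gbp9 above Gbp3 in 2 of 4 tumours with anti-PD-L1 and 3 of 4 with sonidegib). With the combination Gbp8 took place 4 in the order (22.1 ± 22.0 FPKM), and no neighbours in the order had ranges that were apart.

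The summed level of the 8 members was 29.0, 46.7, 26.1 and 49.3 FPKM in vehicle replicates 1 to 4. It was 74.1, 55.4, 66.5 and 51.5 FPKM with anti-PD-L1, 54.8, 43.8, 75.2 and 96.2 with sonidegib, and 32.5, 149, 351 and 194 with the combination. Combination replicates 2 to 4 therefore held more Gbp RNA than each of the other 13 libraries, and combination replicate 1 stood among the vehicle tumours. The label of that library was not checked here. Of 129 tested genes of the lists used below, Gbp genes aside, it lay inside the vehicle range for 89, above it for 29 and below it for 11. Those above included the fibroblast markers Dcn (22.3 FPKM, against 1.67 to 6.77 with vehicle) and Thy1 (6.17, against 2.20 to 3.92). They also included the macrophage marker Mrc1 (4.58, against 0.915 to 1.57), and these 3 were chosen after their values were seen. Genes of the type I interferon response list were among those above as well. The counts over all tested genes are not given here, so these counts do not show whether the library differs from vehicle. The combination calls below turn on this library, and the members' values are given with and without it. The share of single members in the sum varied as well. In combination replicates 2, 3 and 4 Gbp8 made up 16.8%, 14.6% and 6.12% of the sum. Combination replicate 1 had a Gbp8 share of 0.468%, and the 12 libraries of the other groups had 0.348 to 4.44%. The 4 members of chromosome 5 together made up 49.1% and 59.2% of the sum in combination replicates 2 and 3, where the other groups had 21.4 to 42.7%. In combination replicates 1 and 4 their share was 22.7% and 37.3%, inside that range. In combination replicate 4 Gbp3 was the most abundant member, at 27.9% of the sum, as it was in vehicle replicates 1 to 3.

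The first comparison asks how tumours given both agents differed from vehicle tumours. Gbp2, Gbp7 and Gbp9 rose. Gbp2, a prenylated GBP that acts on the vacuole of Toxoplasma, was at 9.65, 12.2, 5.52 and 21.9 FPKM in vehicle replicates 1 to 4 and at 13, 49.2, 91.1 and 50.3 with the combination. The log2 difference was 1.83 (SE 0.49, adjusted p = 0.0359 by limma). Combination replicate 1 lay inside the vehicle range, and the other 3 lay above every vehicle tumour. Gbp7, which is known to promote assembly of the phagocyte NADPH oxidase, was at 2.91, 3.75, 1.91 and 4.20 FPKM with vehicle and at 3.38, 8.97, 18.9 and 14.1 with the combination, a log2 difference of 1.39 (SE 0.34, adjusted p = 0.0345). Gbp9, a member of the chromosome 5 cluster, was at 4.13, 9.50, 4.67 and 7.70 FPKM with vehicle and at 5.18, 34.2, 82.5 and 40.1 with the combination (2.03, SE 0.56, adjusted p = 0.0377). For both genes the pattern of libraries was that of Gbp2.

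The other 5 members had differences in the same direction that did not pass the threshold. Gbp8 differed the most, from 0.101, 1.80, 0.531 and 0.391 FPKM with vehicle to 0.152, 25.0, 51.3 and 11.9 with the combination, a log2 difference of 2.90 with a wide error (SE 0.91, adjusted p = 0.0546). The lowest of these values rest on about 12 and 24 fragments, as estimated from depth and length. Gbp5, which promotes assembly of the NLRP3 inflammasome, was at 0.508 to 0.967 FPKM with vehicle and at 0.551, 2.47, 7.91 and 3.28 with the combination (1.17, SE 0.38, adjusted p = 0.0529). Gbp6 (1.66, SE 0.55, adjusted p = 0.0577) and Gbp4 (1.88, SE 0.68, adjusted p = 0.0734) peaked in the same tumour, combination replicate 3, at 26.4 and 47.8 FPKM, above 0.920 to 2.71 and 1.05 to 3.32 with vehicle. Gbp3 showed the smallest difference (0.87, SE 0.37, adjusted p = 0.109), with 9.70, 12.6, 9.76 and 11.4 FPKM with vehicle and 8.15, 15.3, 25.3 and 54.1 with the combination. It was also the only member whose highest value was in combination replicate 4.

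In all, 3 of 8 members were called higher and 0 lower, against 10.3% of the 15105 tested genes called higher and 11.3% called in either direction. At an unadjusted p under 0.05 the count was 8 of 8, against 33.6% of genes. The members were chosen with earlier results of these data known and run in parallel over the libraries, so these counts are no independent support. The median log2 difference was 1.75 over the members and 0.26 over all tested genes. Of the genes called, 91.5% were higher, a share of 50.3% under quantile normalization and 55.5% under median-of-ratios scaling, which moved the median of all tested genes to -0.03 and 0.01 and that of the members to 1.44 and 1.45. All 8 members passed the filter on low values without help from the combination, since each reached 1 FPKM in at least 4 libraries of the other groups. For 0 of 8 members were all 4 combination tumours above all vehicle tumours, against 3.12% of genes, because combination replicate 1 stayed low throughout. Without that library all 8 members were called, as were 28.0% of genes, with log2 differences of 1.28 (Gbp3) to 4.02 (Gbp8) and an adjusted p of 9.31e-05 for Gbp9. Since that library was singled out by its low values of these same members, the calls made without it are no support. The count was 0 of 8 without vehicle replicates 1, 2 or 3 (0.0662%, 0.0397% and 0.0199% of genes) or combination replicates 2, 3 or 4 (0.0596%, 3.38% and 0.0199%), and 4 of 8 without vehicle replicate 4 (32.8%) or sonidegib replicate 1 (10.9%). It was 0 of 8 as well once the GC trend between libraries was removed (3.82% of genes), with log2 differences of 0.42 (Gbp3) to 2.31 (Gbp8), and the part of the GC slope in the result was not tested.

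**Figure D2:**
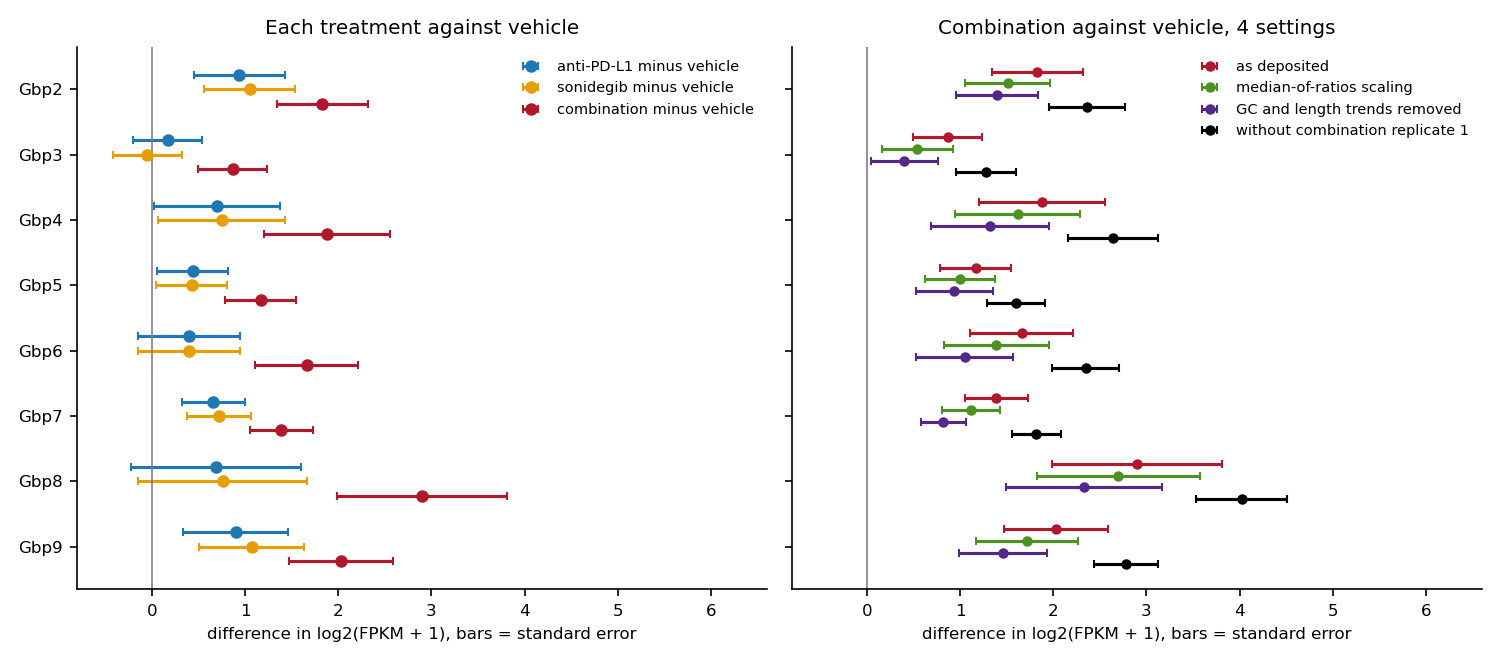
Difference of each member from vehicle in log2(FPKM + 1), with standard errors: left, the 3 treatments; right, the combination under 4 settings of the processing. The combination points lie to the right of the single-agent points for all 8 members, and all 8 shift further right without combination replicate 1 and left with GC and length trends removed.

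Each agent alone was compared with vehicle, and 0 of 8 members were called in either comparison, as for all tested genes (0.0% called in both). These comparisons and the one above share the vehicle tumours, so their values are not independent. With anti-PD-L1, Gbp2 was at 24.4, 18.4, 28.2 and 18.8 FPKM in replicates 1 to 4 (log2 difference 0.94, SE 0.49, adjusted p = 0.233). Gbp9 was at 16.8, 12.9, 11.3 and 9.67 FPKM (0.90, SE 0.56, adjusted p = 0.309) and Gbp7 at 6.55, 5.89, 4.70 and 4.85 (0.66, SE 0.34, adjusted p = 0.233). For Gbp5, Gbp7 and Gbp9 all 4 anti-PD-L1 tumours lay above all 4 vehicle tumours, 3 of 8 members against 3.39% of genes. Gbp3 differed least, by 0.17 (SE 0.37, adjusted p = 0.796), a sign that turned under quantile normalization (-0.16) and median-of-ratios scaling (-0.22). The median over members was 0.67, against 0.30 over all tested genes, and 0 of 8 members had an unadjusted p under 0.05, against 24.6% of genes. With the GC trend between libraries removed, the median was 0.11 over members and 0.01 over all tested genes. Ranges that did not overlap were read from the deposited values only, and the part of the GC slope was not tested.

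With sonidegib the values spread more widely. Gbp2 was at 15.9, 16.4, 25.3 and 48.4 FPKM in replicates 1 to 4 (log2 difference 1.05, SE 0.49, adjusted p = 0.175), the last of these close to combination replicates 2 and 4. Gbp9 was at 18.0, 8.28, 17.4 and 14.8 FPKM (1.07, SE 0.56, adjusted p = 0.216) and Gbp7 at 6.64, 4.35, 6.85 and 5.41 (0.72, SE 0.34, adjusted p = 0.182). Gbp7 alone among the members had all sonidegib tumours above all vehicle tumours, 1 of 8 against 6.0% of genes. Gbp8 was at 0.703 and 0.447 FPKM in sonidegib replicates 1 and 2 and at 3.15 and 4.27 in replicates 3 and 4, the first pair inside the vehicle range and the second above it. Gbp3 differed by -0.05 (SE 0.37, adjusted p = 0.943). The median over members was 0.73, against 0.33 over all tested genes, and 2 of 8 members, Gbp2 and Gbp7, had an unadjusted p under 0.05, against 27.3% of genes. With the GC trend removed, the median was 0.18 over members and 0.0 over all tested genes, and the part of the GC slope was not tested.

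The combination was also set against each single agent. Against anti-PD-L1 the log2 differences ran from 0.70 (Gbp3) to 2.21 (Gbp8), with a median of 1.01 against -0.05 over all tested genes. Limma called 0 of 8 members (0.00662% of genes), and 3 of 8 had an unadjusted p under 0.05 (5.78% of genes). Against sonidegib they ran from 0.67 (Gbp7) to 2.14 (Gbp8), with a median of 0.94 against -0.07, again with 0 of 8 members called (0.0% of genes) and 3 of 8 at an unadjusted p under 0.05 (4.28%). Combination replicate 1 lay below all 4 anti-PD-L1 tumours for each of the 8 members. Without it, limma called Gbp6, Gbp7, Gbp8 and Gbp9 against anti-PD-L1 (log2 differences 1.95, 1.16, 3.33 and 1.88, adjusted p = 0.00789, 0.0329, 0.00306 and 0.00744), where 1.42% of genes were called. Gbp6, Gbp8 and Gbp9 were called against sonidegib (1.95, 3.26 and 1.72, adjusted p = 0.0132, 0.00486 and 0.0215), where 0.761% of genes were. That library was singled out because it is low for these same members, so these calls are no support. With any other single library left out, no member was called in either comparison.

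Sonidegib and anti-PD-L1 alone were close to each other, with differences of -0.22 to 0.16 on the log2 scale, a median of 0.05 against 0.01 over all tested genes, 0 of 8 members called (0.0% of genes) and 0 of 8 at an unadjusted p under 0.05 (2.09%). The signs of 6 members in this comparison changed when single libraries were left out, and the standard errors of 0.34 (Gbp7) to 0.91 (Gbp8) leave room for differences of either sign. The interaction, which asks whether the effect of both agents departs from the sum of the single effects, ran from -0.16 (Gbp2, SE 0.69) to 1.45 (Gbp8, SE 1.28). Limma called 0 of 8 members (0.00662% of genes), 0 of 8 had an unadjusted p under 0.05 (9.88%), and the median was 0.36 against -0.35 over all tested genes. Across the 4 groups, the comparison that the series names as its primary one, 0 of 8 members were called (0.0199% of genes), with adjusted p-values from 0.162 (Gbp7) to 0.269 (Gbp4) and 6 of 8 at an unadjusted p under 0.05 (23.7%). Without combination replicate 1, all 8 were called across the groups, where 12.1% of genes were, and without vehicle replicate 4 Gbp2 and Gbp7 were (2 of 8, against 22.0% of genes). The limit given above for calls made without combination replicate 1 holds here too.

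The 3 other Gbp genes were likewise highest in combination replicate 3. Gbp10 was at 0.946, 2.45, 0.900 and 1.31 FPKM with vehicle and at 0.888, 11.6, 49.6 and 16.5 with the combination, and rose by a log2 difference of 2.37 (SE 0.71, adjusted p = 0.0468). Gbp2b, historically called Gbp1, was at 0.154 to 0.272 FPKM with vehicle and at 0.208, 1.87, 5.44 and 1.94 with the combination (1.24, SE 0.33, adjusted p = 0.0357), and it passed the filter through 3 combination tumours and 1 sonidegib tumour. Gbp11 stayed below the filter, at 0.0511 to 0.442 FPKM with vehicle and 0.0978, 3.11, 7.61 and 2.25 with the combination, and was not tested. In all of them combination replicate 1 stood inside or just below the vehicle range.

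Gbp transcripts resemble each other, which limits how far single members can be told apart. Of all 50-base stretches of the longest Gbp6 transcript, 59.7% also occur in another gene, 43.8% in Gbp10, and for Gbp10 the share is 82.5%. Gbp6 and Gbp10 are therefore uncertain as separate values. The share was 18.2% for Gbp8, 12.8% for Gbp4 and Gbp7, 8.3% for Gbp9, 4.8% for Gbp3, 2.5% for Gbp5 and 2.1% for Gbp2. The gene models of Gbp8, Gbp9 and Gbp4 overlap on the same strand but share only 0.8 to 1.8% of their exonic bases. Gm43302, a model that spans Gbp10 and Gbp6, shares 46.3% and 29.0% of their exonic bases.

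**Figure D3:**
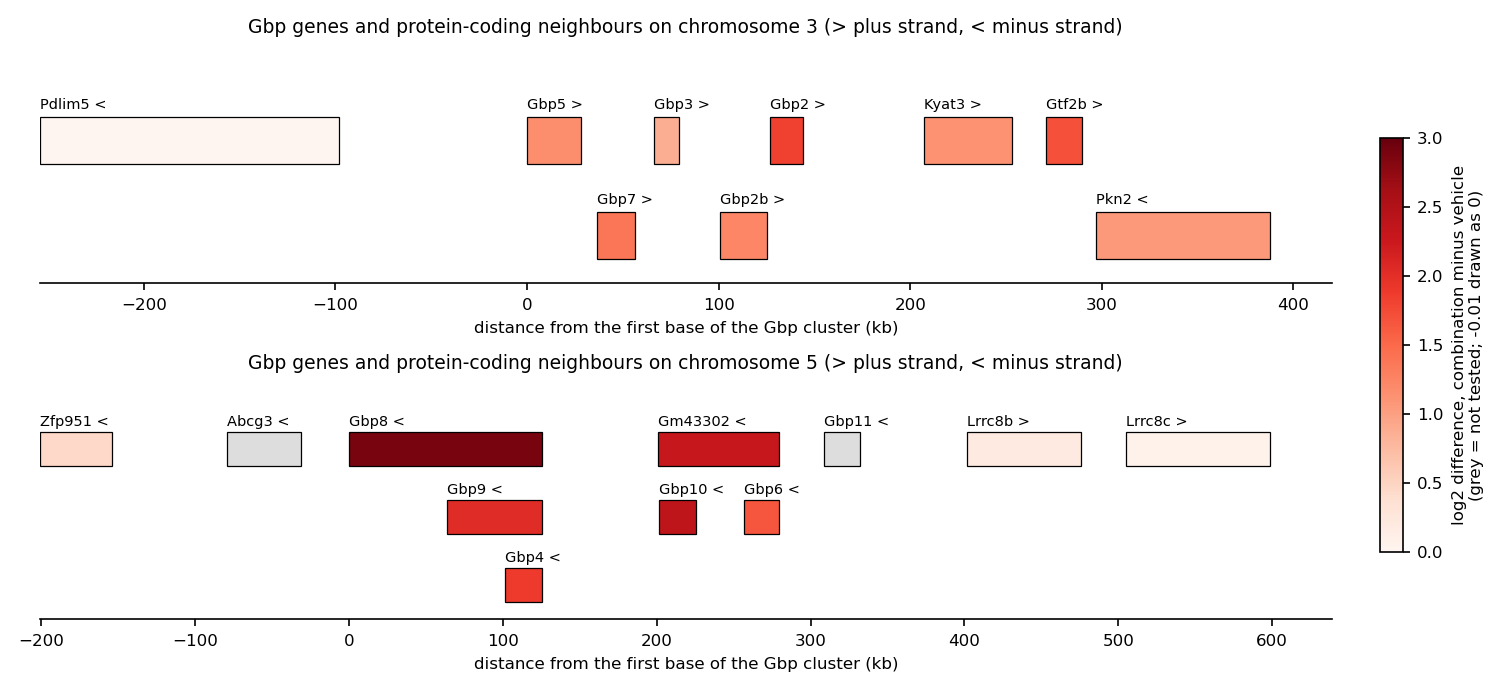
Gene models of both clusters and their protein-coding neighbours within 200 kb, placed by distance from the first base of the cluster and coloured by the log2 difference between combination and vehicle (grey, not tested). Gbp8 is darkest at 2.90, and on chromosome 3 the neighbours Gtf2b (1.70) and Kyat3 (1.13) are as dark as Gbp genes.

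Of 8 tested protein-coding neighbours within 200 kb, 3 rose with the combination, against 10.3% of all tested genes. On chromosome 3 these were Gtf2b, the general transcription factor TFIIB (1.70, SE 0.41, adjusted p = 0.0342), and Kyat3, a kynurenine aminotransferase (1.13, SE 0.27, adjusted p = 0.0342). On chromosome 5 it was Gm43302 (2.30, SE 0.63, adjusted p = 0.0386), whose exons are shared with Gbp6 and Gbp10. Pkn2 differed by 1.06 (adjusted p = 0.0735), and Pdlim5 (-0.01), Zfp951 (0.45), Lrrc8b (0.20) and Lrrc8c (0.07) were not called.

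Among themselves the members ran in parallel over the 16 libraries, with pairwise Pearson correlations of log2(FPKM + 1) from 0.66 to 0.97 (median 0.89 over 28 pairs). The libraries share group structure, and over the 12 libraries without the combination the range was 0.27 to 0.97 (median 0.69). Gbp3 was the least alike, with a median of 0.72 with its 7 partners over 16 libraries and 0.42 over 12. The mean log2 deviation of the members from their means was -1.04 to -0.35 with vehicle, -0.27 to 0.10 with anti-PD-L1 and -0.60 to 0.36 with sonidegib. With the combination it was -0.95, 1.05, 2.37 and 1.42.

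Of the tested genes with a regular symbol, 12052 in all, those most like this mean over the 16 libraries were Gbp10 (Pearson r = 0.99), Irgm1 (0.98), Gbp2b (0.97), Iigp1 (0.97), Igtp (0.97), Trac (0.96), Irgm2 (0.96), Ifi47 (0.96), Tgtp1 (0.96) and Gvin1 (0.95). Spearman's rho was 0.89 to 0.98 for these 10, and r over the 12 libraries without the combination was 0.82 to 0.96. Most of them encode interferon-inducible GTPases, and Trac encodes the constant region of the T cell receptor alpha chain. Irf1 came in place 108 (r = 0.82). These correlations describe libraries that share the treatment groups and are given without a test. Of the 50-base stretches of Gbp10, 70.6% also occur in the member Gbp6, so its first place may be in part built in. Gbp2b and Trac passed the filter on low values only with the help of 3 combination tumours, which also have the highest mean.

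The upstream pathway was read from interferon-gamma to its targets. Ifng itself was listed at 0 in all 4 vehicle tumours and at 0.102, 0.246, 0.525 and 0.239 FPKM with the combination, below the filter everywhere. Anti-PD-L1 gave 0.0409, 0.265, 0.0793 and 0 FPKM and sonidegib 0.0176, 0.0515, 0.108 and 0.192, so the highest value was in combination replicate 3, the tumour with the most Gbp RNA. Irf1, an interferon-induced transcription factor that drives GBP genes, was at 17.5, 18.2, 7.43 and 20.7 FPKM with vehicle and at 17.4, 30.9, 61.3 and 24.2 with the combination (0.96, SE 0.33, adjusted p = 0.0608). Of 13 tested genes of interferon-gamma signalling and its restraint, 0 fell and the median was 0.61, and the phosphatase gene Ptpn2 rose (1.22, adjusted p = 0.0433). Jak2 (1.00, adjusted p = 0.0519) and the class I transactivator Nlrc5 (1.13, adjusted p = 0.0583) did not pass.

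Among targets, 4 of 13 tested interferon-gamma induced chemokines and effectors rose and 0 fell (median 0.65). They were the T cell attracting chemokines Cxcl9 (2.43) and Cxcl11 (1.13), of which Cxcl11 passed the filter on low values only through 3 combination tumours and 1 other, the class I light chain B2m (1.77) and the immunoproteasome subunit Psmb9 (1.18). The immunity-related GTPases (IRGs), which work with GBPs on vacuoles, had a median of 2.53, with 4 of 6 rising: the effector Iigp1 (3.82) and the regulators Igtp (2.04), Irgm1 (1.80) and Irgm2 (1.52). Tgtp1 (3.59, adjusted p = 0.0503) and Tgtp2 (3.03, adjusted p = 0.0588) did not pass. The summed IRG level was 26.7 to 52.4 FPKM with vehicle, 68.0 to 96.8 with anti-PD-L1 and 49.0 to 185 with sonidegib. With the combination it was 39.1, 406, 823 and 424 FPKM, the same order within the group as for the Gbp sum. Of 20 type I interferon response genes 1 rose, the antiviral Ifit2 (1.86), with a median of 0.35. Ifit3 (2.15, adjusted p = 0.0532), Ifit1 (1.44, adjusted p = 0.0602) and Ifi44 (1.19, adjusted p = 0.0628) did not pass.

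Downstream, 5 of 10 tested inflammasome and pyroptosis genes rose and 0 fell (median 0.79). These were the DNA sensor Aim2 (0.79), the adaptor Pycard (1.19), and Casp1 (1.69), Casp4 (1.45) and Casp8 (1.43), which encode caspases of pyroptosis and apoptosis. Of the ATG8 conjugation genes, which target GBPs and IRGs to vacuoles, 2 of 9 rose, Atg3 (1.22) and Atg5 (1.05), with a median of 0.44. Of the 5 prenylation genes, whose enzymes attach the lipid anchor of some GBPs, Fnta rose (1.14) and the median was -0.06. Fntb differed by -0.47 and Pggt1b by 0.48, neither passing. Each of these lists is read against the 10.3% of all genes called higher and the median of 0.26 over all genes in this comparison. The calls of these lists, of the neighbours above and of the cell markers below are given for the deposited values only. In this comparison 1703 genes were called as deposited, 37 with GC and length trends removed and 8 with no filter. With single libraries left out the number ran from 3 to 4947.

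**Figure D4:**
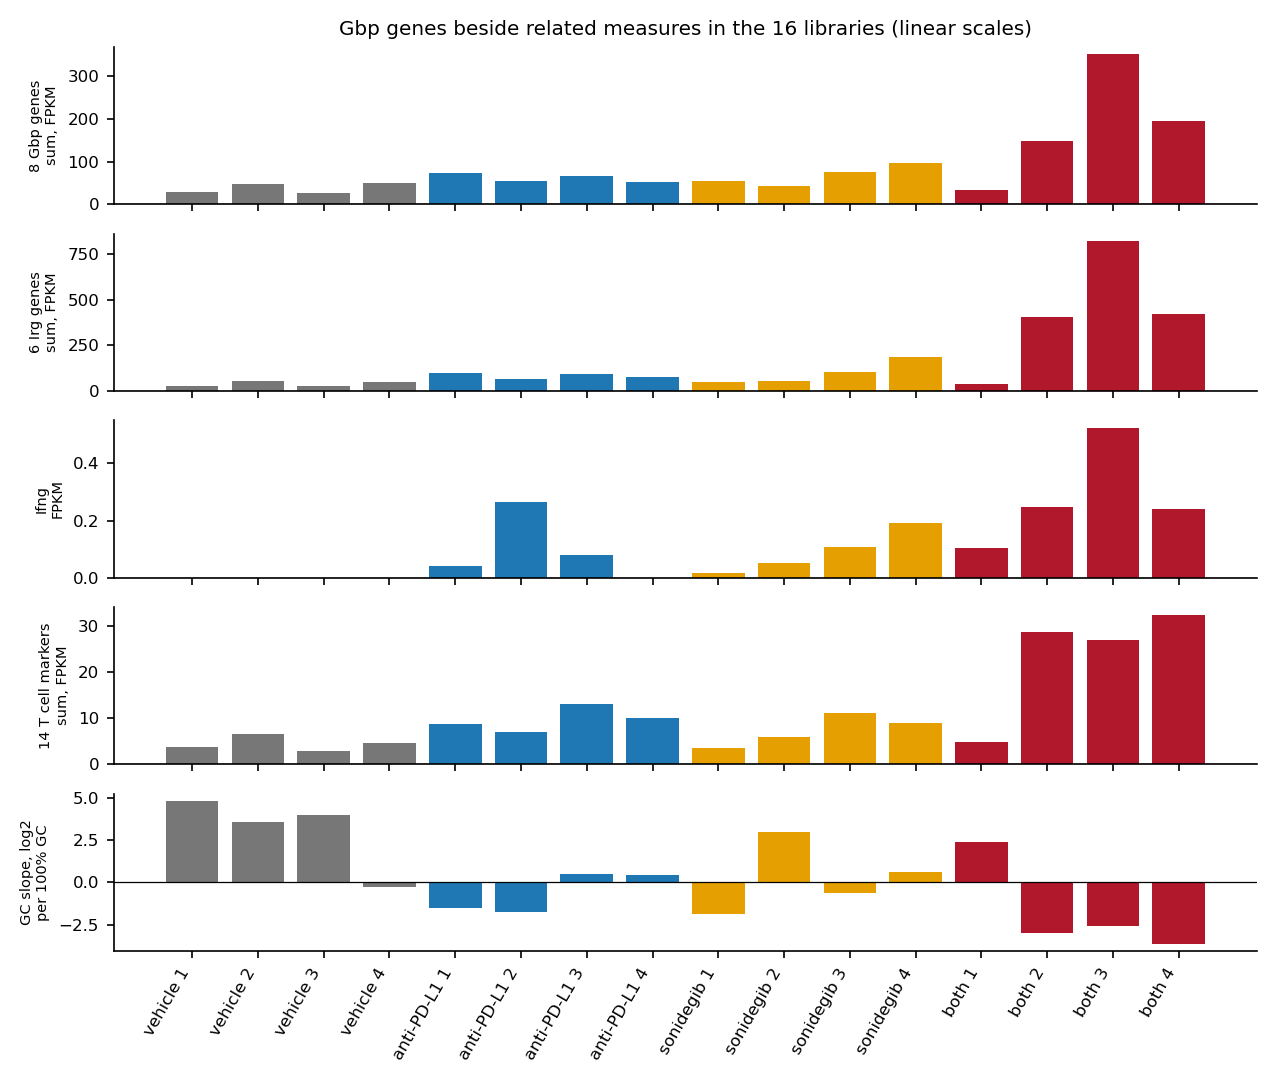
For each of the 16 libraries on linear scales from top to bottom: summed FPKM of the 8 Gbp genes and of the 6 IRG genes, FPKM of Ifng, summed FPKM of 14 T cell markers, and the slope over gene GC content. Combination replicates 2 to 4 are highest for the Gbp, IRG and T cell sums and lowest for the GC slope, and for those 3 sums combination replicate 1 lies inside the vehicle range.

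The summed T cell and NK cell markers were also highest in combination replicates 2 to 4. This was not so of each marker, since the highest level was in an anti-PD-L1 tumour for Cd4 (1.42 FPKM, against up to 0.873 with the combination) and Cd3d (1.04 against up to 1.0). The sum over 14 T cell markers was 3.68, 6.46, 2.97 and 4.64 FPKM with vehicle, 6.98 to 13 with anti-PD-L1 and 3.43 to 11.1 with sonidegib. With the combination it was 4.76, 28.6, 26.9 and 32.5 FPKM, so combination replicate 1 was again inside the vehicle range. Of 5 tested T cell markers 4 rose, Cd3g (1.74), Trac (1.22), Trbc1 (1.36) and Trbc2 (1.97). Trac and Trbc1 passed the filter only with the help of 3 combination tumours, beside 3 and 1 libraries of the other groups, so the count of 4 of 5 supports nothing. Cd3e, below the filter, was at 0.0828 to 0.476 FPKM with vehicle and at 0.0953, 0.856, 1.0 and 0.72 with the combination. No T cell marker was at 0 in any library. The sum over 8 NK cell markers was 0.466 to 1.74 FPKM with vehicle and 1.18, 7.33, 10.1 and 8.55 with the combination. Its 1 tested marker, Nkg7, which T cells express too, rose (1.26), while Klre1, Gzma and Eomes were listed at 0 in 5, 2 and 1 libraries.

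Of 13 macrophage and monocyte markers, 4 rose, Ccr2 (2.01), Mrc1 (1.30), Ly6c2 (1.29) and Fcgr3 (1.14), and the sum was 214 to 346 FPKM with vehicle and 317 to 446 with the combination. Of 9 fibroblast markers 4 rose, Dcn (3.15), Lum (2.75), Pdgfra (1.09) and Thy1 (1.03). Col3a1 (0.79), Fap (0.58), Col1a2 (0.10), Pdgfrb (-0.07) and Col1a1 (-0.34) were not called, where 10.3% of all tested genes were called higher. The fibroblast sum was 111 to 172 FPKM with vehicle, 119 to 282 with anti-PD-L1, 137 to 241 with sonidegib and 170 to 268 with the combination, so the groups overlapped. Of 5 adipocyte markers 1 was tested, Fabp4, which rose too (2.15). The adipocyte sum was 0.622 to 3.93 FPKM with vehicle, 2.07 to 12.4 with anti-PD-L1 and 2.29 to 7.65 with sonidegib. With the combination it was 45.7, 6.0, 7.57 and 7.22 FPKM in replicates 1 to 4, so the highest value was in the tumour with the least Gbp RNA of that group. The endothelial list (6 tested), the dendritic cell list (2), the neutrophil list (3), the muscle list (4) and the epithelial list (9, median -0.23) had 0 members called, and no B cell marker was tested. The B cell sum stayed at 0.185 to 0.45 FPKM in all 16 libraries, and the muscle sum ran from 0.298 to 446 FPKM within and across groups. The part of these cell types in the Gbp differences was not tested.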

How the data were processed

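RNA of 16 tumours was sequenced. The labels' protocols describe stranded libraries after removal of ribosomal RNA, but the molecule label reads polyA RNA, and this conflict was not resolved. The deposited values are FPKM in 1 table, made with TopHat and Cufflinks on GRCm38.p6 (mm10), per the submitters' processing notes. Tool versions and annotation: not given in the sources used here. The authors' FPKM hold no counts, so depth is approximate: it was estimated from the FPKM step of 1 fragment in 4959 genes with 1 transcript of at least 2000 bases, less 200 bases for the fragment. Columns were matched to samples by the S number of the descriptions, and all 16 were used.

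The 15105 genes that reached 1 FPKM in 4 or more libraries were transformed to log2(FPKM + 1), which understates the change of low genes, and fitted with limma 3.58.1 in R 4.3.3 with 1 mean per group over all libraries, an intensity trend and robust variances. Tests were two-sided, with Benjamini-Hochberg adjustment within each of 8 comparisons over all genes and a threshold of 0.05. The script was tested on simulated data. The other settings were quantile normalization, median-of-ratios scaling, a pseudocount of 0.1, no filter, GC or GC and length trends removed by lowess (span 0.3), the replicate number as a block, and each library left out in turn. Coordinates and shared 50-base stretches come from GENCODE release M21, whose identifiers and versions match the table for all members. The members and gene lists were chosen with earlier results of these data known. Named genes are all Gbp genes, Ifng, Irf1 and Cd3e, up to 4 genes of each list by lowest p in the combination comparison, and the 10 genes most correlated with the members' mean. The fifth called inflammasome gene, Pycard, the neighbours, Cd4, Cd3d and the fibroblast markers that were not called were named after their values were seen. Protein sequences were not analysed here, and a gene that the rule names is not reported here.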

Additional observations from a re-analysis of the deposited data

How the results depend on the processing

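Depth is approximate and counting error could not be modelled, and 4 tumours a group with a combination group of unequal tumours limit every comparison. For the combination against vehicle, the number of members called was 3 with quantile normalization and with the pseudocount of 0.1, 4 with median-of-ratios scaling (Gbp8 added, adjusted p = 0.0474), and 0 with no filter, with the GC trend removed and with both trends removed. The median member minus the median of all tested genes was 1.49 as deposited, 1.44 with median-of-ratios scaling and 1.18 with both trends removed. Tested genes called numbered 1703 as deposited (91.5% higher), 2772 with median-of-ratios scaling (55.5%), 2634 with quantile normalization (50.3%), 1780 with the pseudocount of 0.1, 8 with no filter, 577 with the GC trend removed (63.1%) and 37 with both trends removed (64.9%). Across the 4 groups 3 genes were called as deposited, 0 with either scaling, the pseudocount of 0.1, either trend removal or the replicate block, and 4 with no filter. For the combination against anti-PD-L1 the 1 gene became 0 in the same 6 settings and 3 with no filter, and for the interaction the 1 gene became 0 in all 7. The cause was not tested. Apart from these and from leaving out single libraries, the member counts of the other 7 comparisons stayed at 0.

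Same-numbered tumours did not deviate together: 4 of 24 pairs correlated above 0.1 (range -0.43 to 0.34), and 0 of 16 libraries correlated best with their own number. Trends of whole libraries, such as the GC slope, could hide a shared donor or batch, so this does not show that none was shared. With the replicate block 4 members were called for the combination against vehicle (Gbp5 added, adjusted p = 0.0463), and 1177 genes.

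Leaving out single libraries gave 0 to 8 members and 3 to 4947 genes called for the combination against vehicle, 0 to 8 members and 0 to 3321 genes across the groups, 0 to 4 members and 0 to 214 genes for the combination against anti-PD-L1, and 0 to 3 members and 0 to 115 genes against sonidegib. It gave 0 members in the other comparisons, with 0 to 3927 genes for anti-PD-L1 and 0 to 3974 for sonidegib against vehicle, 0 to 1 between the single agents and 0 to 5 for the interaction.

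Directions turned only for differences that were not called. For anti-PD-L1 against vehicle these were Gbp3 (-0.16 after quantile normalization, -0.22 after median-of-ratios scaling, -0.30 with the GC trend and -0.31 with both trends removed) and Gbp6 (-0.21 and -0.20 with GC and both trends removed). For sonidegib against vehicle it was Gbp6 (-0.14 and -0.11), and Gbp3 ran from -0.12 to 0.04 with single libraries left out. Between sonidegib and anti-PD-L1, Gbp5 was at 0.02 with quantile normalization, Gbp6 at 0.0032, 0.07 and 0.09 with quantile normalization, the GC trend and both trends removed, and Gbp8 at -0.07 with the pseudocount of 0.1. With single libraries left out, Gbp2 ran from -0.23 to 0.29, Gbp4 from -0.21 to 0.33, Gbp5 from -0.27 to 0.22, Gbp6 from -0.13 to 0.15, Gbp7 from -0.01 to 0.17 and Gbp8 from -0.25 to 0.37. For the interaction, Gbp2 was at 0.22, 0.30, 0.31 and 0.32 with quantile normalization, median-of-ratios scaling, the GC trend and both trends removed, and Gbp7 at -0.09 and Gbp9 at -0.02 with the pseudocount of 0.1. Its ranges with single libraries left out were -0.53 to 0.38 for Gbp2, -0.32 to 1.19 for Gbp4, -0.11 to 0.73 for Gbp5, -0.29 to 0.44 for Gbp7 and -0.44 to 0.81 for Gbp9.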
